A study of Mus musculus with 24 samples.

Results

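MiR-219 and miR-338 were followed in exosome-enriched fractions (EEFs) of mouse hippocampus through 4 mature miRNAs, namely miR-219a-5p, miR-219a-2-3p, miR-338-3p and miR-338-5p (mmu-mir-219a-5p, mmu-mir-219a-2-3p, mmu-mir-338-3p and mmu-mir-338-5p in the deposited counts). They were taken by name from 1073 mature miRNA names counted in 24 small RNA libraries. EEFs are preparations enriched for small extracellular vesicles, obtained by filtering and spinning dissociated tissue. All mice were male C57BL/6 (C57BL/6OlaHsd in the study's methods) of 6 to 9 weeks that had an injection into the basolateral amygdala of either 0.3 µg kainic acid (KA) or phosphate-buffered saline (PBS, the controls), each in 0.2 µl. KA starts prolonged seizures (status epilepticus), which were curtailed after 40 min with midazolam at 8 mg/kg. Hippocampi were taken at 24 h or 2 weeks, and EEFs were prepared by ultracentrifugation (UC, 5 hippocampi pooled for a sample) or with the ExoQuick precipitation kit (kit, 4 hippocampi pooled). All EEFs were treated with RNase A before RNA was extracted. Each of the 8 combinations of method, treatment and time had 3 biological samples, and because every sample was a pool, differences between single mice were not measured. UC and kit samples were also prepared as separate sets, and an effect of the preparation and one of the set cannot be told apart.

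A miRNA hairpin can give a mature strand from its 5′ arm (5p) and another from its 3′ arm (3p), and bases 2 to 8 of each strand, the seed, guide it to its targets. MiR-219 and miR-338 are known as miRNAs of oligodendrocytes, the myelin-forming cells of the brain. They are strongly induced when oligodendrocyte precursors mature, and they repress factors that hold precursors in an immature, dividing state. Oligodendrocytes also release vesicles, and in bulk fractions such as these, fewer vesicles of 1 cell type and less of a miRNA in each vesicle cannot be told apart. The paper also examined its EEFs for material from outside exosomes. It detected a mitochondrial marker with UC and not with the kit, and its endoplasmic reticulum marker with both. UC fractions were more enriched for the exosome marker Flotillin1. The part of such material in the values here was not tested.

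The mature sequences of 3 of the 4 miRNAs are shown because the seed defines each miRNA's targets. They are from RefSeq on the mouse build GRCm38.p6, 5′ to 3′, with the seed in capitals.
miR-219a-5p: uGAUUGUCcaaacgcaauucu
miR-338-3p: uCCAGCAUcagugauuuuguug
miR-338-5p: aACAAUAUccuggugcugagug
The 3 seeds differed from each other, and among 1679 mature miRNAs in the same table none of the others held any of them. The hairpin Mir338, which yields both miR-338 strands, is shown with its 2 arms in capitals, since the balance between these arms is followed below.
Mir338 hairpin: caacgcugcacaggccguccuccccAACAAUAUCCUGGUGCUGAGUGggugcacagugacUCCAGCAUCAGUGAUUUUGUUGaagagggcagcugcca
This hairpin lies on the minus strand at chr11:120014765-120014862, within an intron of Aatk on the same strand (GENCODE M21), and Mir3065 lies opposite to it on the plus strand.

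MiR-219a-5p has 2 genomic copies with identical mature sequence, Mir219a-1 (hairpin at chr17:34024983-34025092) and Mir219a-2 (hairpin at chr2:29845631-29845727), both on the minus strand. Their hairpins share a stretch of 22 nucleotides, so reads of miR-219a-5p are uncertain as to the copy. The Mir219a-1 hairpin overlaps an exon of the long non-coding RNA Gm26940, whereas Mir219a-2 has no host gene in this annotation. MiR-219a-2-3p is the 3′ strand of Mir219a-2, and miR-219a-1-3p that of Mir219a-1. MiR-219a-1-3p had 4 reads over the 12 UC libraries and 12 reads over the 12 kit libraries, with 0 to 2 in any library. MiR-219a-2-3p had 10887 and 3118 reads in the same libraries. Of the strands encoded opposite to these hairpins, miR-219b-3p had 1 read with UC, and miR-219c-3p had 1 with UC and 5 with the kit. MiR-219b-5p, miR-219c-5p, miR-3065-5p and miR-3065-3p had 0 reads in the 24 libraries, where a count of 0 allows up to 17.7 to 35.1 CPM (reads scaled to a library total of 1000000) in a UC library and 4.43 to 19.4 CPM in a kit library.

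The UC libraries held 85436 to 169639 reads each and the kit libraries 154884 to 676726. In CPM, 1 read was worth 5.89 to 11.7 in UC libraries and 1.48 to 6.46 in kit libraries. Of other cell types, the summed level of 6 neuronal miRNAs was 30637 to 44443 CPM over the UC libraries and 47961 to 80409 CPM over the kit libraries, and all 6 were detected with both methods. MiR-1a-3p and miR-206-3p, 2 of the 4 miRNAs listed for liver and muscle, had 0 reads, and the 4 summed to at most 21.4 CPM in any library.

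All 4 miRNAs had reads in 24 of 24 libraries and passed the filter on low counts with both methods. Together they made up 0.924 ± 0.126% of all reads in a UC library and 0.253 ± 0.0161% in a kit library (SD over 12 libraries of each method). With UC, miR-219a-2-3p alone held 75.7 ± 3.24% of the reads of the 4, miR-338-3p 13.4 ± 2.95%, miR-338-5p 8.20 ± 2.17% and miR-219a-5p 2.64 ± 0.597%. With the kit, miR-338-3p held the most, 42.1 ± 5.86%, followed by miR-219a-2-3p (33.9 ± 6.38%), miR-338-5p (19.4 ± 6.46%) and miR-219a-5p (4.57 ± 1.19%). By mean abundance among all miRNAs, miR-219a-2-3p ranked 20 with UC and 83 with the kit, miR-338-3p 60 and 75, miR-338-5p 80 and 105, and miR-219a-5p 135 and 173. In the order of levels with the kit, the ranges of miR-338-3p (755 to 1376 CPM) and miR-219a-2-3p (587 to 1059 CPM) overlapped, as did those of miR-219a-2-3p and miR-338-5p (259 to 787 CPM). With UC, the range of miR-219a-2-3p lay above that of the other 3, and the ranges of miR-338-3p (884 to 1634 CPM) and miR-338-5p (401 to 1242 CPM) overlapped.

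**Figure D1:**
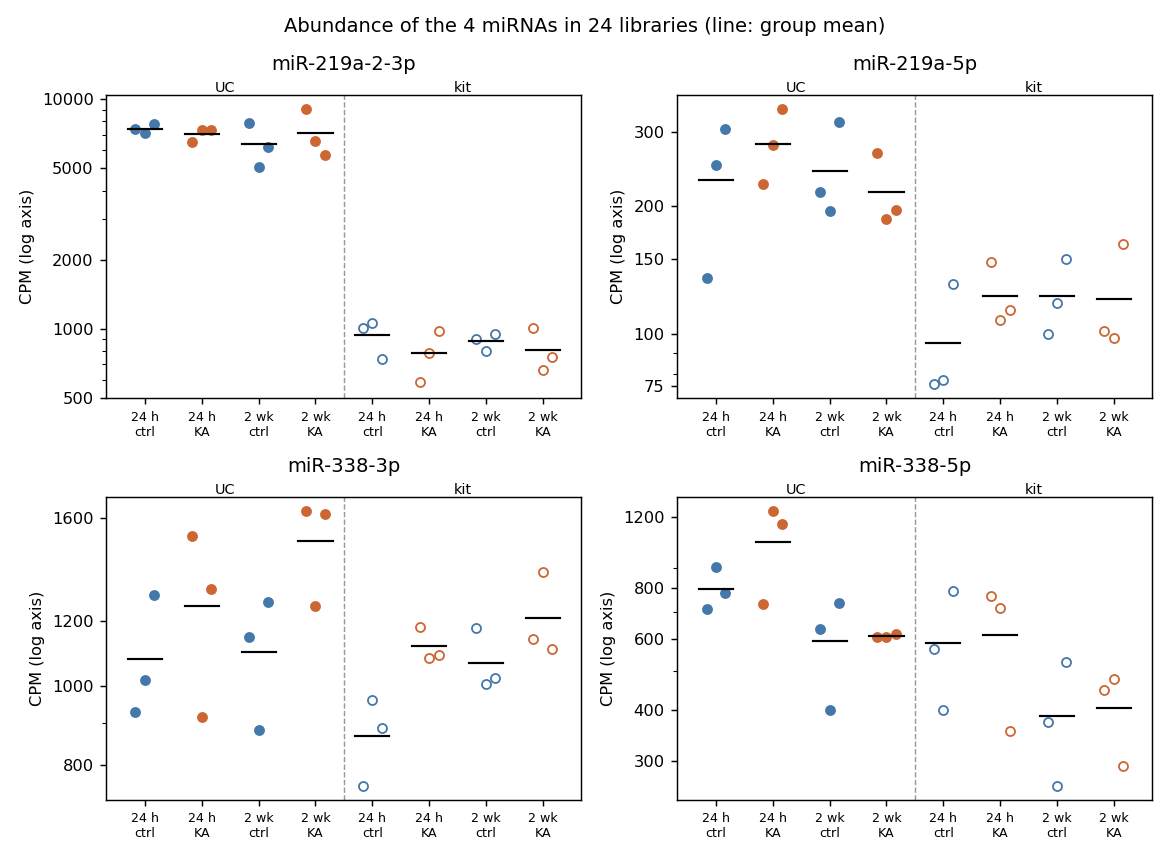
Abundance of the 4 miRNAs in CPM (log axis, scaled separately for each panel) in each of the 24 libraries, with UC libraries as filled and kit libraries as open points, controls in blue and KA in orange, and lines at the means of 3 libraries. MiR-219a-2-3p was at 5058 to 9055 CPM with UC and at 587 to 1059 CPM with the kit, whereas the UC and kit ranges of the other 3 overlapped.

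Comparing UC with the kit asked whether both preparations hold the same oligodendrocyte miRNAs in the same proportions. MiR-219a-2-3p was much lower with the kit, miR-219a-5p and miR-338-5p were lower by smaller amounts, and miR-338-3p, the partner strand of miR-338-5p, did not pass the test. MiR-219a-2-3p had a lowest, median and highest value of 5058, 7223 and 9055 CPM in the 12 UC libraries and of 587, 851 and 1059 CPM in the 12 kit libraries. Every UC library was thus above every kit library, a separation that 10.8% of the 397 miRNAs tested showed in either direction.

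MiR-219a-5p, which shares a hairpin with miR-219a-2-3p in its Mir219a-2 copy, had a lowest, median and highest value of 136, 238 and 340 CPM with UC and 75.8, 111 and 163 CPM with the kit. These ranges overlapped, and they rested on 13 to 45 reads per UC library and 12 to 66 per kit library. MiR-338-3p, the strand taken as the main product of Mir338, had 884, 1258 and 1634 CPM with UC and 755, 1086 and 1376 CPM with the kit. MiR-338-5p had 401, 721 and 1242 CPM with UC and 259, 463 and 787 CPM with the kit. The ranges of both miR-338 strands overlapped between the methods.

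In edgeR's quasi-likelihood test over all 24 libraries, with treatment and time as a covariate and Benjamini-Hochberg adjustment over 397 miRNAs, 3 of the 4 were lower with the kit and 0 were higher. Over all miRNAs tested, 66.2% passed in either direction and 33% were lower, so that a difference between the methods was common. The log2 difference (kit minus UC) of miR-219a-2-3p was −3.08 (standard error 0.14, edgeR adjusted p = 4.33e-20), the third lowest of the 397. It was −1.12 for miR-219a-5p (standard error 0.18, edgeR adjusted p = 1.07e-06) and −0.65 for miR-338-5p (standard error 0.16, edgeR adjusted p = 0.000641). For miR-338-3p it was −0.25 (standard error 0.13, 95% interval −0.52 to 0.02, edgeR adjusted p = 0.0935).

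The call of miR-338-3p depended on the fit, and its adjusted p was between 0.00257 and 0.430 over the alternatives (edgeR, limma or DESeq2). Leaving out 1 library brought it past the threshold in 14 of the 24 cases, with log2 differences of −0.33 to −0.29. These libraries were, with UC, control replicates 1 and 2 and KA replicate 2 at 24 h, and control replicates 2 and 3 and KA replicates 1 and 2 at 2 weeks. With the kit, they were control replicate 2 and KA replicates 1, 2 and 3 at 24 h, and control replicates 1 and 2 and KA replicate 2 at 2 weeks. In these 24 fits the median log2 difference over all miRNAs itself moved between −0.13 and 0.04.

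Other lists gave the direction in which further miRNAs differed between the methods. Of 10 other miRNAs linked to oligodendrocytes or their precursors, 8 were tested, of which 4 were higher with the kit and 1 was lower, where 33.2% of all miRNAs were higher and 33% lower. The 5 of 8 called are thus close to the 66.2% called over all miRNAs. Their median log2 difference was 0.20, against −0.02 over all miRNAs. Higher with the kit were miR-212-3p (log2 difference 2.28), miR-23a-3p (1.80), miR-27a-3p (1.18) and miR-138-5p (0.41, edgeR adjusted p = 0.0498), of which miR-138-5p is also abundant in neurons and is in the neuronal list too. The lower one was miR-125a-3p (−1.28).

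Marker miRNAs of other cells were compared between the methods as well. Of 6 neuronal miRNAs, 4 were higher with the kit and 0 lower, and the 4 called of 6 are again close to the 66.2% over all miRNAs. Both endothelial miRNAs were higher with the kit, where they summed to 2101 to 3242 CPM against 218 to 609 CPM with UC. Of 3 microglial and immune miRNAs tested, 1 was lower with the kit, miR-146a-5p (log2 difference −0.86). Of 3 miRNAs tested for choroid plexus and epithelium, 1 was higher, miR-204-5p (log2 difference 1.07). The 3 erythroid miRNAs summed to 0 to 11.3 CPM for UC and 0 to 184 CPM for the kit. The part of these other cell types in the values of miR-219 and miR-338 was not tested.

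**Figure D2:**
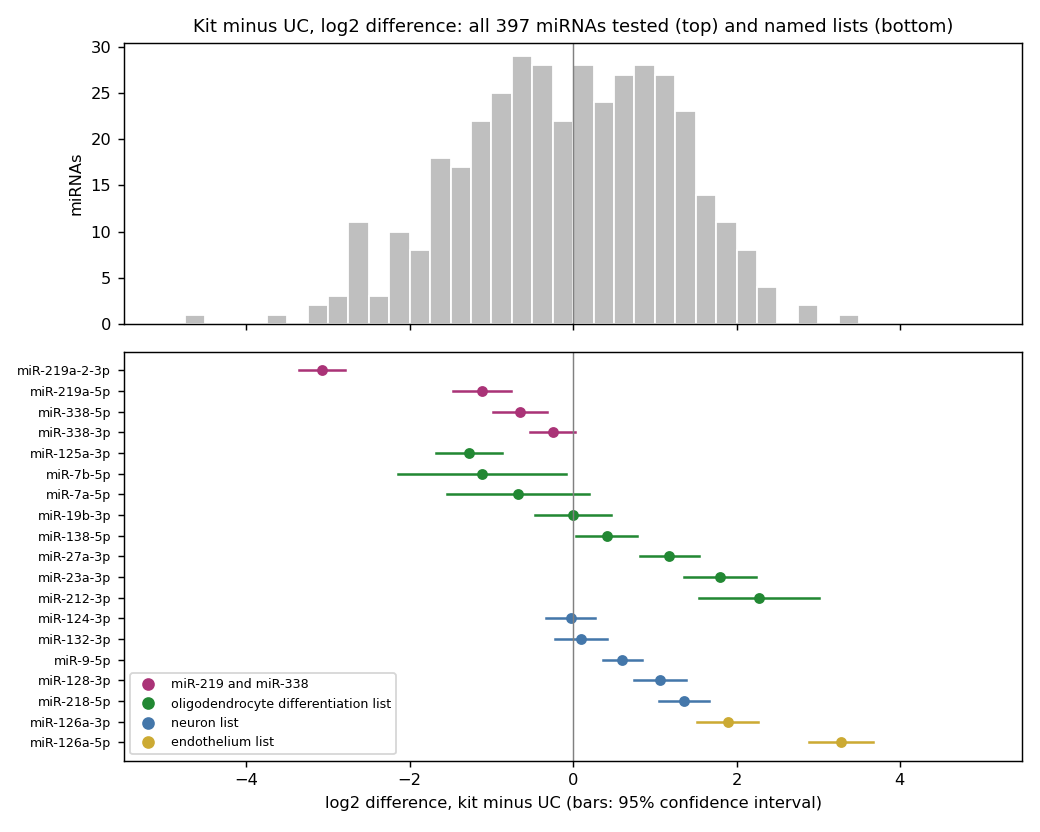
Log2 difference in abundance, kit minus UC: the top panel is a histogram of all 397 miRNAs tested, and the bottom panel gives each listed miRNA as a point with its 95% confidence interval. MiR-219a-2-3p lies at −3.08 at the low edge of the distribution, whereas miR-338-3p has an interval from −0.52 to 0.02.

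The ratio of 2 miRNAs within a library does not depend on how libraries are scaled. There were 28.9 reads of miR-219a-2-3p for each read of miR-219a-5p with UC (geometric mean, range 19.6 to 54.8) and 7.39 with the kit (range 3.98 to 13.7). All 12 UC libraries were above all 12 kit libraries, and the log2 ratio was lower by 1.97 with the kit (log2 difference −1.97, two-sided permutation test, p = 2e-05, the smallest that 100000 resamples can give, 3e-05 after adjustment over 3 ratios). Against miR-338-3p, miR-219a-2-3p had 5.73 reads for each with UC (range 3.53 to 8.01) and 0.798 with the kit (range 0.483 to 1.34). These ranges did not overlap either, with a log2 difference of −2.84 (permutation p = 2e-05, again the smallest possible, 3e-05 adjusted). MiR-219a-2-3p and miR-338-3p thus differed between the methods by unequal amounts.

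The arms of Mir338 were nearer to balance. With UC, there were 1.65 reads of miR-338-3p for each of miR-338-5p (geometric mean, range 0.738 to 2.70), and with the kit 2.25 (range 1.13 to 3.87). The 3p strand was the more frequent one in every library but UC KA replicate 2 at 24 h, where it had 42.4% of the 278 reads of both arms (95% Wilson interval 36.8 to 48.3%). Intervals that included equal shares were found at 24 h in UC control replicates 1 (48.9 to 64.2%) and 2 (46.8 to 58.8%). The same was true at 24 h of UC KA replicate 3 (46.6 to 59.7%) and kit control replicate 3 (48.3 to 57.6%). Between the methods the log2 ratio differed by 0.45 in favour of the 3p strand with the kit, which did not pass the threshold (two-sided permutation test, p = 0.0752, also 0.0752 after adjustment over the 3 ratios). This test permuted all 24 libraries without regard to treatment or time. UC and kit libraries of the same treatment, time and number were also taken as pairs, a replicate block, which holds treatment and time fixed. The exact p was then 0.0322 (two-sided sign-flip permutation). Deviations of such paired libraries from their group means correlated weakly, at −0.101 to 0.177 at 24 h and 0.062 to 0.211 at 2 weeks.

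**Figure D3:**
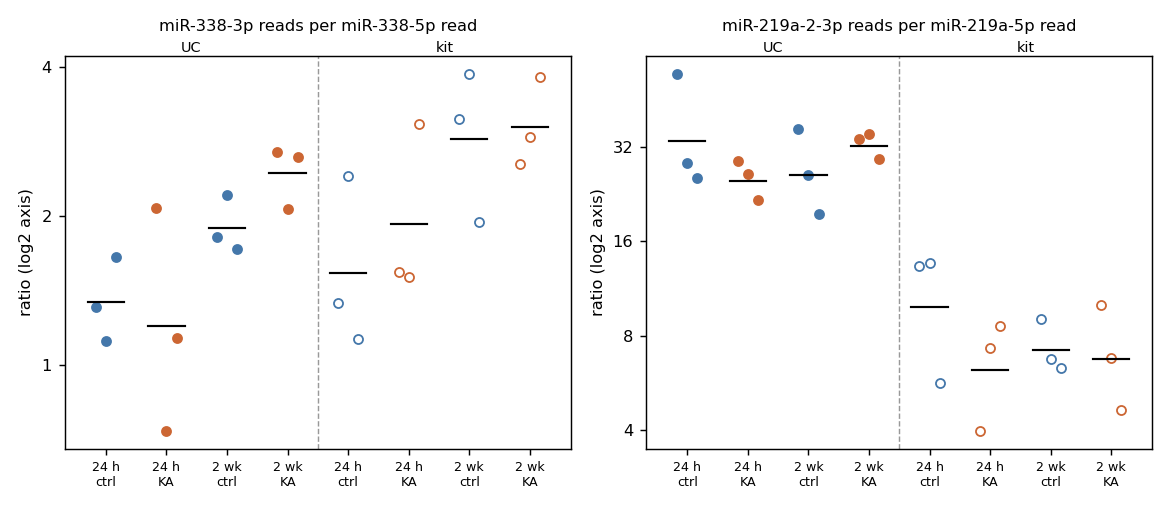
Reads of miR-338-3p for each read of miR-338-5p (left) and of miR-219a-2-3p for each read of miR-219a-5p (right) in every library, on log2 axes, with lines at the geometric mean of 3 libraries, UC as filled and kit as open points. The miR-219 ratio was 19.6 to 54.8 for UC and 3.98 to 13.7 for the kit, and the miR-338 ratio was higher at 2 weeks than at 24 h on average with both methods.

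The comparisons of KA with control asked whether status epilepticus changes these miRNAs in EEFs at 24 h or 2 weeks. Of the 4, 0 passed adjustment at either time with either method in edgeR's test, and limma-voom and DESeq2 also called 0. At 24 h with UC, miR-219a-2-3p had 7438, 7116 and 7812 CPM in the 3 controls and 6530, 7330 and 7359 CPM after KA. With the kit it had 1013, 1059 and 741 CPM in controls and 587, 788 and 977 CPM after KA. The groups overlapped with both methods. In edgeR's test the log2 differences of miR-219a-2-3p (KA minus control) were −0.16 (standard error 0.26) with UC and −0.13 (standard error 0.30) with the kit.

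MiR-338-3p at 24 h had 928, 1016 and 1289 CPM in UC controls and 1522, 916 and 1313 CPM in UC KA samples. With the kit it had 755, 962 and 888 CPM in controls and 1180, 1081 and 1090 CPM after KA. All 3 kit KA libraries were above all 3 kit controls, which 9.04% of 520 miRNAs showed in either direction. The log2 difference was 0.49 with the kit (standard error 0.28, edgeR adjusted p = 0.839, unadjusted 0.0933), where the median over all miRNAs was 0.09. When scaling used miR-92b-3p and miR-25-3p, the study's reference miRNAs, both moved down together, to −0.05 for miR-338-3p and −0.40 for the median.

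MiR-338-5p at 24 h had 709, 905 and 779 CPM in UC controls and 733, 1242 and 1155 CPM after KA. With the kit, the 3 controls had 565, 400 and 787 CPM and the KA samples 763, 716 and 355 CPM. Both pairs of groups overlapped, and the log2 differences were 0.31 with UC (standard error 0.31, edgeR adjusted p = 1, unadjusted 0.322) and 0.18 with the kit. For miR-219a-5p, the low-count strand, the log2 differences at 24 h were 0.17 with UC and 0.49 with the kit (standard error 0.39 and 0.37). At 24 h, percent called over all miRNAs after adjustment was 0.476% in UC and 0% in kit libraries in edgeR's test (2.86% and 4.62% at an unadjusted p under 0.05, where 0 of the 4 passed with either method).

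At 2 weeks, miR-338-3p had 1148, 884 and 1264 CPM in UC controls and 1634, 1251 and 1621 CPM after KA. The highest control was just above the lowest KA library, so the groups overlapped. The log2 difference was 0.57 (standard error 0.30, edgeR adjusted p = 0.577, unadjusted 0.0628), where the median over all miRNAs was 0.02. Scaling to the 2 reference miRNAs moved both down together, to −0.13 for miR-338-3p and −0.54 for the median. Same-numbered libraries deviated together in this comparison, and miR-338-3p was higher after KA in 3 of 3 such pairs, while 27.4% of all miRNAs had 1 direction in all 3. A replicate block gave it a log2 difference of 0.54 (standard error 0.28) with an unadjusted p of 0.0538 and an adjusted p of 0.567 in edgeR's test. In kit libraries, miR-338-3p had 1176, 1005 and 1021 CPM in controls and 1142, 1376 and 1108 CPM after KA, a log2 difference of 0.18 (standard error 0.28).

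MiR-219a-2-3p at 2 weeks had 7918, 5058 and 6192 CPM in UC controls and 9055, 6549 and 5723 CPM after KA, a log2 difference of 0.23 (standard error 0.26). With the kit it had 905, 797 and 953 CPM in controls and 1012, 665 and 755 CPM after KA, a log2 difference of −0.13 (standard error 0.30). KA and control libraries overlapped with both methods. For miR-338-5p the log2 differences at 2 weeks were 0.17 with UC and 0.14 with the kit, and for miR-219a-5p both were −0.05. After adjustment, percent called over all miRNAs in edgeR's test was 0.952% for UC and 0% for the kit (7.86% and 2.69% unadjusted, where again 0 of the 4 passed). With a replicate block, for which same-numbered libraries at 2 weeks deviated together, 2 of 520 miRNAs were called with the kit and still 0 of the 4.

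At 2 weeks, the summed level of 5 microglial and immune miRNAs was 2069 to 2762 CPM in UC controls and 4349 to 5397 CPM after KA. With the kit it was 677 to 1723 CPM in controls and 1514 to 7625 CPM after KA. Of these 5, miR-146a-5p made up most of the sum, and it alone was called, with UC (log2 difference 1.22, edgeR adjusted p = 0.0149) and not with the kit (1.93, edgeR adjusted p = 0.168). MiR-142a-3p and miR-142a-5p did not pass with UC (log2 differences 0.64 and 0.82, edgeR adjusted p = 0.920 and 0.724). The 4 miRNAs listed for choroid plexus and epithelium summed to 295 to 699 CPM in UC controls and 677 to 2867 CPM after KA, and 1 of the 3 tested was called, miR-204-5p (log2 difference 1.88, edgeR adjusted p = 0.0149). The sums of the groups overlapped, and the highest KA library was far above the KA mean of 1428 CPM, so the rise of the sum lay largely in 1 library. With the kit these 4 summed to 1373 to 1851 CPM in controls and 1358 to 3222 CPM after KA, and 0 were called in edgeR's test, with 0 at an unadjusted p under 0.05. The part of either list in the values of miR-338-3p after KA was not tested. The 10 other oligodendrocyte-linked miRNAs showed 0 calls in each of the KA comparisons in edgeR's test, where 8 were tested in UC and 10 in kit libraries. Also, 0 of them passed the unadjusted threshold of 0.05. Over all miRNAs, the share called with UC was 0.476% at 24 h and 0.952% at 2 weeks, and 0% with the kit at both times. Unadjusted it was 2.69% to 7.86%, so that 0 of 8 or 10 is close to these shares.

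**Figure D4:**
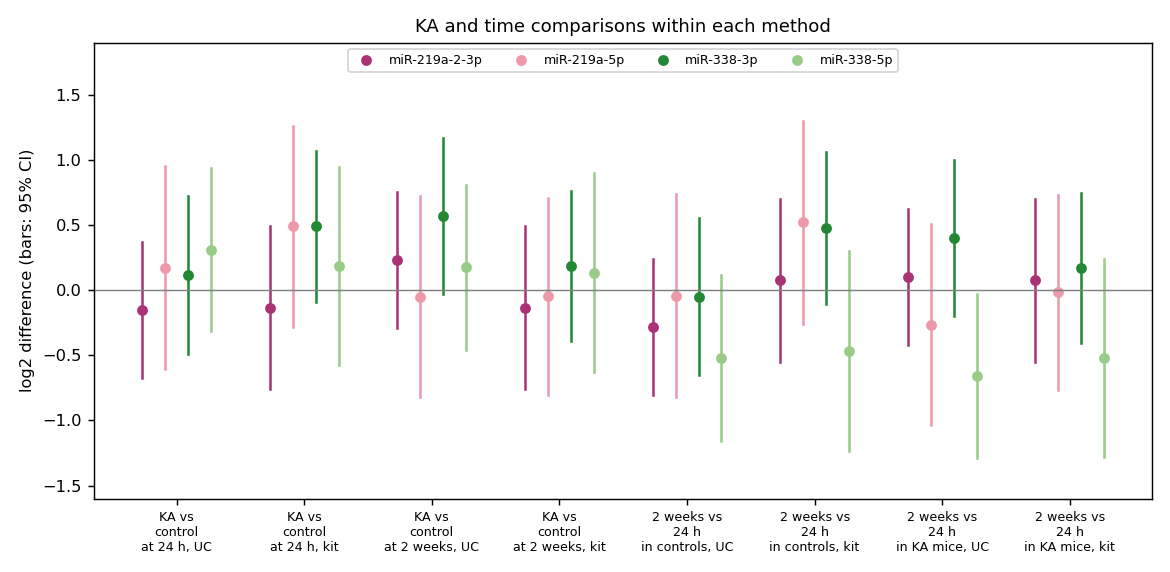
Log2 differences of the 4 miRNAs (points) with 95% confidence intervals in the comparisons of KA with control at each time and of 2 weeks with 24 h in each treatment, with UC and kit fitted separately. All intervals but that of miR-338-5p in UC KA mice over time include 0, and it did not pass adjustment (edgeR adjusted p = 0.432).

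Whether the KA effect itself differed was tested by interaction. Of the 4 miRNAs, 0 passed adjustment for a difference in the KA effect between the methods at 24 h or 2 weeks, or between the times with UC or the kit (edgeR's test), and 0 had an unadjusted p under 0.05. Percent called over all miRNAs was 0% in 3 of these tests and 0.476% between the times with UC, and unadjusted it was 2.27%, 3.53%, 3.27% and 6.9%. The log2 differences of the KA effect were between −0.54 (miR-219a-5p, 2 weeks minus 24 h with the kit, 95% interval −1.62 to 0.54) and 0.45 (miR-338-3p, 2 weeks minus 24 h with UC, 95% interval −0.40 to 1.30). With such intervals, a change of the KA effect by 1 on the log2 scale was not detectable for every member.

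Libraries at 2 weeks were compared with those at 24 h within each treatment, using the same libraries as the KA comparisons. Of the 4 miRNAs, 0 passed adjustment in any of these comparisons with edgeR, limma-voom or DESeq2, and miR-338-5p alone, in UC KA mice, passed an unadjusted p under 0.05 in edgeR's test. It had 733, 1242 and 1155 CPM at 24 h and 606, 606 and 617 CPM at 2 weeks, which did not overlap, as for 10.5% of all 420 miRNAs. Its log2 difference was −0.66 (standard error 0.31, edgeR adjusted p = 0.432, unadjusted 0.0410). The share of all miRNAs past the unadjusted threshold in this comparison was also 10.5%, and after adjustment it was 0.952%.

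In UC controls, miR-338-5p had 709, 905 and 779 CPM at 24 h and 634, 401 and 737 CPM at 2 weeks, a log2 difference of −0.52 (standard error 0.32). With the kit, the log2 differences of miR-338-5p were −0.47 in controls and −0.52 in KA mice. These 4 values had 1 sign, and 0 of them passed adjustment. For miR-338-3p over time, the log2 differences were −0.05 in UC controls, 0.40 in UC KA mice, 0.48 in kit controls and 0.17 in kit KA mice. In kit controls its 3 libraries at 2 weeks (1176, 1005 and 1021 CPM) were above all 3 at 24 h (755, 962 and 888 CPM), as for 8.65% of all miRNAs in either direction, and under scaling to the 2 reference miRNAs the log2 difference was −0.04, with a median over all miRNAs of −0.41. MiR-219a-2-3p differed over time by log2 values of −0.28 to 0.10 and miR-219a-5p by −0.27 to 0.52. Percent called over all miRNAs after adjustment was 0% in both comparisons of controls and 0.192% in kit KA mice (edgeR, 4.05%, 3.65% and 3.08% unadjusted).

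The arm ratio of Mir338 was then compared between the times, a comparison chosen after its values were seen and therefore given without a test. With UC there were 1.27 reads of miR-338-3p for each of miR-338-5p at 24 h (geometric mean, range 0.738 to 2.08, n = 6) and 2.15 at 2 weeks (range 1.71 to 2.70, n = 6). With the kit there were 1.72 at 24 h (range 1.13 to 3.07, n = 6) and 2.94 at 2 weeks (range 1.95 to 3.87, n = 6). The times overlapped with both methods. The log2 difference (2 weeks minus 24 h) was 0.76 with UC and 0.78 with the kit, beside a pooled SD within groups of 0.42 and 0.50. Over both methods it was 0.70 in controls and 0.84 in KA mice. The ratio of miR-219a-2-3p to miR-219a-5p differed over time by 0.0014 on the log2 scale with UC and by −0.17 with the kit, where the pooled SD was 0.39 and 0.55.

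Neither ratio passed a test between KA and control. The arm ratio of Mir338 differed between KA and control by log2 values of 0.10 with UC (two-sided exact permutation within time, p = 0.68) and 0.20 with the kit (exact p = 0.465). The ratio of miR-219a-2-3p to miR-219a-5p differed by −0.06 with UC (exact permutation p = 0.805) and −0.38 with the kit (exact permutation p = 0.265). All 4 had an adjusted p of 0.805.

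No correlation among the 4 miRNAs across the libraries of 1 method passed its test. Over the 12 libraries of each method, Pearson's r of log2 CPM for the 6 pairs was between −0.53 and 0.50, and 0 of the 12 correlations passed adjustment for either Pearson's r or Spearman's rho (permutation tests). For the arms of Mir338, r was −0.09 with UC (permutation p = 0.785, rho = −0.14, p = 0.667) and −0.13 with the kit (permutation p = 0.687, rho = −0.06, p = 0.868). Leaving out the 2 libraries farthest from the median gave r = −0.01 and −0.18. For miR-219a-5p and miR-219a-2-3p, r was 0.19 with UC (permutation p = 0.566, rho = 0.14, p = 0.666) and −0.53 with the kit (permutation p = 0.0756, rho = −0.55, p = 0.0720, r = −0.46 without the 2 farthest libraries). All adjusted values of these pairs were at least 0.603.

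Among 186 other miRNAs, those whose log2 CPM was most like a member over the 24 libraries, centred within method, were described by Pearson's r alone, since the libraries share groups and scaling. For miR-219a-2-3p they were miR-541-5p (r = 0.60), miR-181a-5p (0.58) and miR-140-3p (0.55). For miR-338-3p they were miR-381-3p (0.69), miR-300-3p (0.66) and miR-186-5p (0.64). For miR-338-5p they were miR-21a-3p (0.50), miR-345-3p (0.44) and miR-125b-5p (0.40), and for miR-219a-5p let-7f-2-3p (0.56), miR-300-3p (0.46) and miR-124-3p (0.44).

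Reads can differ from the mature sequence by bases added to an end or by an internal base change. Such altered reads made up 12.5% of the reads of miR-219a-2-3p over all libraries, 12.0% of those of miR-219a-5p, 11.9% of miR-338-5p and 7.68% of miR-338-3p, against a median of 12.5% over 193 miRNAs with at least 500 reads. Per library, miR-219a-2-3p had altered shares of 11.8 ± 1.41% for UC and 15.0 ± 3.08% for the kit (SD, n = 12), a difference of 3.15 percentage points (two-sided permutation test, p = 0.0031, 0.0124 after adjustment over the 4 miRNAs). It was 1.97 points in control libraries alone (permutation p = 0.110). For miR-338-3p the shares were 6.72 ± 2.48% and 9.06 ± 3.23% (permutation p = 0.0586), for miR-338-5p 10.8 ± 3.58% and 12.7 ± 5.40% (permutation p = 0.322), and for miR-219a-5p 9.11 ± 7.64% and 16.9 ± 10.5% over the 11 libraries of each method with at least 20 reads (permutation p = 0.0608).

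The kind of alteration divided the 4 miRNAs along other lines than their families. Reads with only A or only U added to the 3′ end, the usual products of enzymes that tail miRNAs, were 9.83% of miR-219a-2-3p and 11.0% of miR-338-5p. They were 1.94% of miR-338-3p and 0.743% of miR-219a-5p, where the median of the 193 miRNAs was 6.37%. With UC libraries pooled, A and U tails were 5.01% and 4.56% for miR-219a-2-3p, and 5.33% and 4.28% for miR-338-5p. With the kit they were 6.13% and 4.65% for miR-219a-2-3p, and 6.50% and 5.40% for miR-338-5p. Single kit libraries of miR-338-5p varied in both directions, with 24 A and 5 U tails in KA replicate 1 at 24 h, and 17 and 34 in KA replicate 2 at 2 weeks. Longer mixed additions of at least 4 bases were 10.2% of the reads of miR-219a-5p and 4.70% of those of miR-338-3p (ranks 19 and 33 of 193 miRNAs), against 0.964% for miR-219a-2-3p, 0.360% for miR-338-5p and a median of 0.780%. In miR-219a-5p these were 82 of 807 reads. With UC libraries pooled, such additions were 0.560% for miR-219a-2-3p, 7.26% for miR-219a-5p, 2.94% for miR-338-3p and 0.175% for miR-338-5p. With the kit they were higher, at 2.37%, 12.6%, 5.50% and 0.472% in the same order. For miR-338-5p these were 2 reads with UC and 9 with the kit. Single classes were not tested between the methods.

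**Figure D5:**
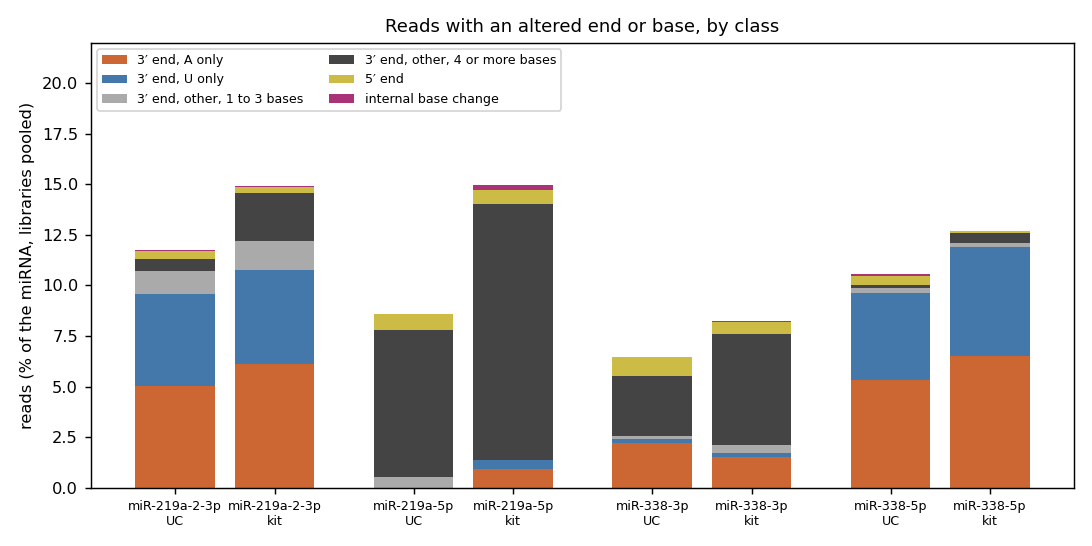
Percent of the reads of each miRNA that carry an altered end or base, by class, with the 12 libraries of each method pooled, in stacked bars. A and U tails make up most alterations of miR-219a-2-3p and miR-338-5p, and mixed additions of 4 or more bases most of those of miR-219a-5p and, with the kit, of miR-338-3p.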

How the data were processed

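The authors treated EEFs with RNase A, made libraries with the Illumina TruSeq Small RNA kit, and trimmed and mapped reads to miRBase v21 hairpins with Chimira. How reads matching several hairpins were assigned is not given in the sources used here. The deposited values are raw counts of reads per mature miRNA, and counts per modification pattern. Both tables had equal totals in 11992 of 11992 pairs of miRNA and library once 11791 doubled reads were left out.

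Samples were grouped by the labels. The members and lists were chosen with earlier results of these data known. All 4 members are named in every comparison, relatives and list miRNAs by count, and the 3 most alike by Pearson's r. edgeR 4.0.16 (R 4.3.3; TMM, glmQLFTest, Benjamini-Hochberg) was fitted to miRNAs with CPM over 1 in at least 6 libraries of a method (420 with UC, 520 with the kit, 397 in both), with 12 libraries per method in 4 groups, or all 24 with method and group. The adjusted threshold was 0.05. The tests were first run on simulated data. Ratios used a pseudocount of 0.5 and permutation tests (scipy 1.17.1), within time where stated. Wilson intervals cover counting error only, whereas edgeR's intervals of log2 differences also cover the spread between libraries. Alternatives were limma 3.58.1, DESeq2 1.42.0, other scalings and filters, a replicate block and libraries left out. Replicate numbers come from the labels. Same-numbered libraries were said to deviate together where their deviations from the group means correlated above 0.1 in all 3 pairs. This held for KA and control at 2 weeks (correlations 0.114 to 0.237 with UC, 0.322 to 0.402 with the kit). It also held for the 2 times in UC KA mice (0.126 to 0.160). The other comparisons missed this rule, although the mean correlation over time with the kit was 0.201 in controls and 0.207 in KA mice. Beyond a count of A-to-G reads, editing was not analysed here, nor were ExoCarta and targets.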

Additional observations from a re-analysis of the deposited data

How the results depend on the processing

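The calls of miR-219a-2-3p, miR-219a-5p and miR-338-5p between the methods, and the count of 0 of 4 members called in each KA, time and interaction comparison, held under every alternative run. For miR-338-3p (kit minus UC), the log2 difference passed the threshold at −0.70 when scaled by the reference miRNAs miR-92b-3p and miR-25-3p (the median of all miRNAs was then −0.45), −0.33 with at least 10 counts in every library and −0.26 with DESeq2, and leaving out libraries gave −0.45 to −0.14. The number of all miRNAs called between the methods was 263 of 397, and 120 of 146 with at least 10 counts in every library. Scaling to the 2 reference miRNAs, which moved the median of all miRNAs by −0.54 to 0.09 in the KA and time comparisons, took miR-338-3p with it to −0.13 (KA, 2 weeks, UC), −0.047 (KA, 24 h, kit) and −0.037 (time, kit controls). Of the 24 other member values in the KA and time comparisons, 13 changed sign under an alternative other than this common shift, and 0 passed adjustment under any.

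With a replicate block, the arm ratio of Mir338 between methods kept 0.45 and passed (exact sign-flip p = 0.0322). The altered shares of miR-219a-5p (6.86 points, exact sign-flip p = 0.0273) and miR-338-3p (2.34 points, exact sign-flip p = 0.0454) were then under 0.05 only before adjustment. Altered shares under alternatives were not adjusted over the 4 miRNAs, unlike the main tests. The replicate block changed no other call of a member. KA minus control, the arm ratio turned to −0.16 with UC at 24 h alone, and with a replicate number left out it was −0.15 to 0.33 for UC and −0.30 to 0.58 for the kit. The miR-219 ratio with UC turned to 0.30 at 2 weeks alone (left out: −0.17 to 0.16). The arm ratio over time, which was not tested, was 0.50 in UC controls, 0.90 in kit controls, 1.02 in UC KA mice and 0.65 in kit KA mice, and with a replicate number left out 0.52 to 0.93 for UC and 0.68 to 0.89 for the kit. The altered share of miR-219a-2-3p missed the threshold in control libraries (1.97 points) and without replicate 1 (left out: 2.49 to 3.65). That of miR-338-3p was under 0.05 before adjustment without replicate 2 (left out: 1.61 to 3.77), and that of miR-338-5p turned to −1.38 in control libraries. The cause of these changes was not tested. Depth limited miR-219a-5p most, at 12 to 66 reads per library. At least 50 reads per library left too few libraries for an altered share of miR-219a-5p.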

Other observations

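Changes of A to G within the mature sequence, the mark that A-to-I editing leaves in reads, were rare in these miRNAs. They were found in 5 reads of miR-219a-2-3p, with 4 of them at position 15 as the files count it. They were found in 1 read of miR-219a-5p, 2 of miR-338-3p and 1 of miR-338-5p. Over the 24 libraries these miRNAs had 14005, 807, 6134 and 3052 reads.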
